A study of Mus musculus with 9 samples.

Results

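The genes described here encode the subunits, activators, inhibitor and assembly factors of the proteasome, the protease that degrades ubiquitin-tagged proteins. They were chosen by symbol alone, as the rows whose name starts with Psma to Psmg followed by a digit, which gave 49 of the 23235 genes in the deposited table. The table holds 1 column of FPKM (fragment counts divided by transcript length and library total) for each of 4 groups: nuclei and cytoplasms of wild-type (WT) and of MTR4-null mouse oocytes of day 21, without a treatment in the labels. MTR4 is the RNA helicase that hands nuclear RNAs to the exosome for degradation. Each oocyte was split into nucleus and cytoplasm by micromanipulation, 10 nuclei or cytoplasms went into a sample, and the labels list 9 libraries, 3 of WT nuclei and 2 of each other group. The sources used here do not give how MTR4 was removed or in which cells.

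Because each group has 1 authors' column, no error, test or p-value can be given, and every difference below is a difference between columns without a replicate check. Which libraries entered each column, and how they were combined, is not stated, and the read depth behind the values is unknown. The transcript of Mtr4 itself, listed as Skiv2l2, stood at 16.2 (WT) and 2.91 FPKM (MTR4-null) among nuclei and at 21.6 (WT) and 2.51 FPKM (MTR4-null) among cytoplasms. All 15 oocyte markers were at 1 FPKM or more in every column, and 15 granulosa cell markers summed to 45.5 to 84.7 FPKM, against 7925 to 13153.5 for the oocyte markers. FPKM is relative, and genes of small RNAs held 58.4% (WT) and 53.8% (MTR4-null) of the nuclear columns and 4.34% (WT) and 39.1% (MTR4-null) of the cytoplasmic ones. Those genes were picked by symbol, with a pattern that would also take in the ribosomal RNA precursor. In such bulk columns, fewer cells of a type and less RNA per cell cannot be told apart.

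The proteasome has a barrel-shaped core of stacked rings, in which alpha subunits (Psma) form the gates and beta subunits (Psmb) carry the peptidases. A cap binds either end of the barrel: its ATPases (Psmc) unfold substrates and thread them into the core, and its non-ATPase subunits (Psmd) bind ubiquitin chains, remove them and hold the cap together. Other rings, the activators (Psme), can dock in place of the cap, and dedicated chaperones (Psmg for the core, Psmd5, Psmd9 and Psmd10 for the cap ATPases) help to assemble the particle. In oocytes, degradation of cyclin B and securin by the proteasome drives the meiotic divisions.

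As a whole, proteasome genes kept a similar place among the genes other than small RNAs in all 4 columns. The FPKM of the 49 genes summed to 2298 (WT) and 2702 (MTR4-null) in nuclei and to 2796 (WT) and 1639 (MTR4-null) in cytoplasms. As a share of the FPKM of all genes other than small RNAs, these sums were 0.646%, 0.664%, 0.701% and 0.621% in the same order. The MTR4-null cytoplasm was thus the lowest column on both scales, by a wide margin in FPKM as deposited and by a small one as a share. Within this frame a few genes differed from most other proteasome genes in the absence of MTR4. The cap subunits Psmd13 and Psmd7, the assembly factor Psmg2 and the inducible subunit Psmb10 were at least 2-fold higher in both compartments. Of these, Psmg2 and Psmb10 were under 1 FPKM in both WT columns. Such differences were not rare: among all genes with at least 1 FPKM in at least 1 column, 23.9% (nucleus) and 15% (cytoplasm) were at least 2-fold higher. Among the proteasome genes at that level the shares were 15.2% (nucleus) and 13.0% (cytoplasm). For both compartments together, the share of all genes was not counted. The cap ATPase Psmc1 was at least 2-fold lower in both as deposited. It stood apart in the nucleus only, since 17 proteasome genes were at least 2-fold lower in the cytoplasm.

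For the rest of the text, 4 values of a gene are given in the order WT nucleus, MTR4-null nucleus, WT cytoplasm, MTR4-null cytoplasm. Differences are on the scale log2(FPKM + 1), whose pseudocount of 1 makes differences of low genes smaller, and "at least 2-fold" means 1 or more on that scale. At least 1 FPKM in at least 1 column was reached by 46 of the 49 genes; Psma8, Psmb8 and Psmb9 did not. Psmb10 and Psmg2 passed only through the MTR4-null columns, so they had to be higher there. With no filter on low values, the counts of genes at least 2-fold apart were the same in every comparison.

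**Figure D1:**
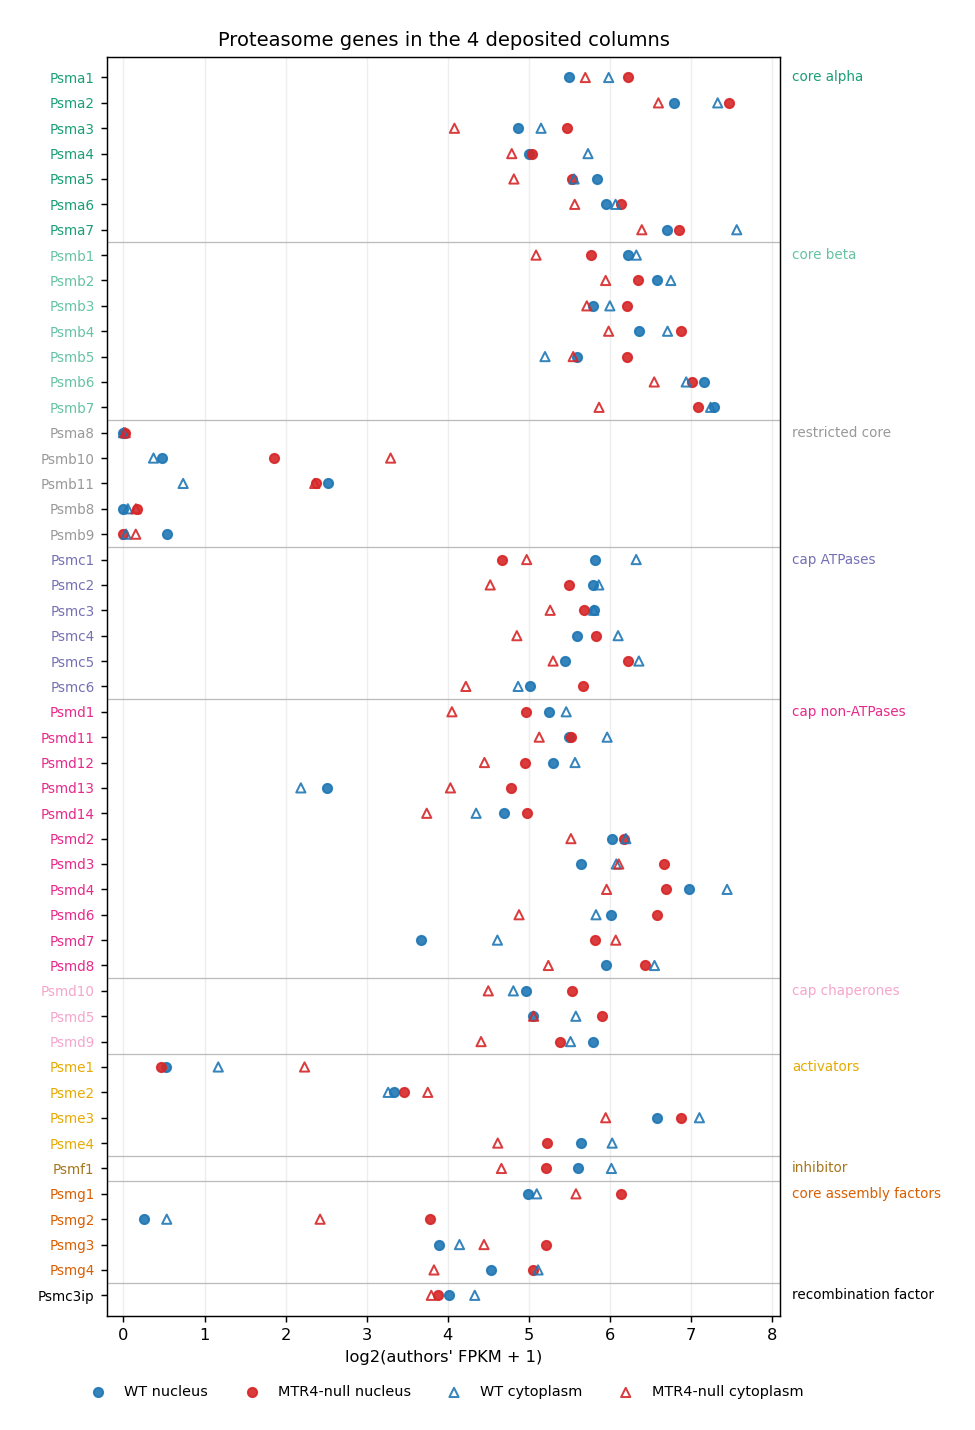
Level of each of the 49 proteasome genes, on the scale log2(FPKM + 1), in the 4 deposited columns; filled circles are nuclei, open triangles cytoplasms, blue is WT and red MTR4-null, and genes are grouped by class. Psmd13, Psmd7 and Psmg2 show both red symbols to the right of both blue ones, while for most core and cap genes the red triangle (MTR4-null cytoplasm) lies farthest to the left.

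The constitutive core was expressed throughout. All 7 alpha and 7 beta genes were between 28.2 and 154 FPKM in the WT nucleus and between 34.6 and 189 in the WT cytoplasm. Psma7, an alpha subunit, was the highest alpha gene of the WT cytoplasm, at 104, 115, 189 and 83.2 FPKM across the columns. Psma3 was the lowest there, at 28.2, 43.3, 34.6 and 16.0 FPKM. Psma7 thus stood 5.46 times above Psma3 in that column, although each alpha ring holds 1 copy of either subunit. The other 5 alpha genes were between 31.1 and 109.8 FPKM in the WT nucleus and between 46.2 and 160.1 in the WT cytoplasm. Of the beta genes, Psmb7, which carries the trypsin-like peptidase, stood at 154, 135, 151 and 57.4 FPKM, and was the highest beta gene in both nuclei and in the WT cytoplasm. Psmb5, the chymotrypsin-like peptidase and the main target of proteasome inhibitors, stood at 47.2, 73.2, 35.8 and 45.8 FPKM. It was the lowest beta gene in both WT columns but not in the MTR4-null ones, where Psmb1 was lowest. The other 5 beta genes were between 54.5 and 143 FPKM in the WT nucleus and between 33.1 and 92.6 in the MTR4-null cytoplasm.

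Of the core subunits that replace constitutive ones in particular tissues, Psma8, Psmb8 and Psmb9 were near or at 0. Psma8, an alpha subunit of male germ cells, was at 0, 0.0162, 0 and 0.0150 FPKM. Psmb8, a catalytic subunit of the immunoproteasome that immune signals induce, was at 0, 0.118, 0.0383 and 0.113 FPKM, and Psmb9, another of them, at 0.451, 0, 0.0216 and 0.111 FPKM. All 3 were thus under 1 FPKM in every column. Psmb10, the third inducible catalytic subunit, was at 0.396, 2.61, 0.293 and 8.82 FPKM: low in both WT columns and highest in the MTR4-null cytoplasm. Psmb11, known from the thymic cortex, was at 4.77, 4.18, 0.666 and 4.13 FPKM, lower in the WT cytoplasm than in the other columns.

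Markers of leukocytes, a cell class rich in immunoproteasome genes, were read beside Psmb10. Of 12 such markers, 4 were at 1 FPKM or more in the MTR4-null cytoplasm, and 2 in each of the other columns. Their sum was 34.6, 4.08, 25.1 and 9.63 FPKM in the usual order, of which H2-Aa alone held 31.0, 1.31, 23.1 and 1.63. Cd3e was listed at 0 in all columns, and Ptprc, the pan-leukocyte gene, did not exceed 0.107 FPKM. Lyz2, Tyrobp and Cd74 were at 0.963, 1.35 and 1.23 FPKM in the MTR4-null cytoplasm and did not exceed 0.267 FPKM elsewhere. Psme1, an interferon-inducible activator, was also highest in that column. The part of such cells in the Psmb10 and Psme1 values was not tested.

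The 6 cap ATPases form 1 ring of different subunits, and in the WT nucleus their values were the closest of any large class, from 31.3 to 55.3 FPKM, a ratio of 1.76. In the other columns the ratio of highest to lowest was 2.17 to 3.03. Psmc5, highest in the WT cytoplasm, was at 42.6, 73.9, 81.1 and 38.4 FPKM. Psmc6, lowest there, was at 31.3, 49.8, 28.2 and 17.7 FPKM. Psmc1, whose product helps to open the gate of the core, was at 55.3, 24.4, 79.2 and 30.4 FPKM: it was the highest ATPase gene of the WT nucleus and the lowest of the MTR4-null nucleus. Psmc2 was at 54.3, 44.0, 57.3 and 22.0 FPKM, close to its class in both WT columns.

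The 11 cap non-ATPases spread more widely in WT than any other class of constitutive subunits. Psmd4, a receptor for ubiquitin chains, was the highest of them in both WT columns, at 125, 102, 174 and 61.3 FPKM. Psmd13, a structural subunit of the cap's lid, was the lowest in both, at 4.68, 26.5, 3.56 and 15.4 FPKM. Psmd7, the lid subunit that pairs with the deubiquitinase, was at 11.8, 55.5, 23.5 and 66.3 FPKM. In the WT nucleus these lid genes were the lowest of the 11; in the MTR4-null nucleus Psmd13 was still the lowest and Psmd7 was the median gene. The highest gene of the class stood 26.8 times above the lowest in the WT nucleus and 3.86 times in the MTR4-null nucleus. The cytoplasmic ratio was 48.8 for WT and 5.50 for MTR4-null. Psmd14, the deubiquitinase itself, was at 24.9, 30.6, 19.4 and 12.4 FPKM and so was no higher in MTR4-null cytoplasm than in WT. Psmd3, a scaffold of the lid, stood at 49.2, 100.4, 66.7 and 68.1 FPKM, higher in the MTR4-null nucleus than in the other columns. Psmd1, a large scaffold of the base, stood at 37.0, 30.2, 43.1 and 15.6 FPKM, Psmd6 at 63.5, 95.2, 55.9 and 28.5 FPKM, and Psmd8 at 60.9, 85.4, 92.8 and 36.8 FPKM. The other 3 genes of this class, Psmd2, Psmd11 and Psmd12, were between 38.3 and 64.4 FPKM in the WT nucleus and between 20.9 and 44.9 in the MTR4-null cytoplasm.

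**Figure D2:**
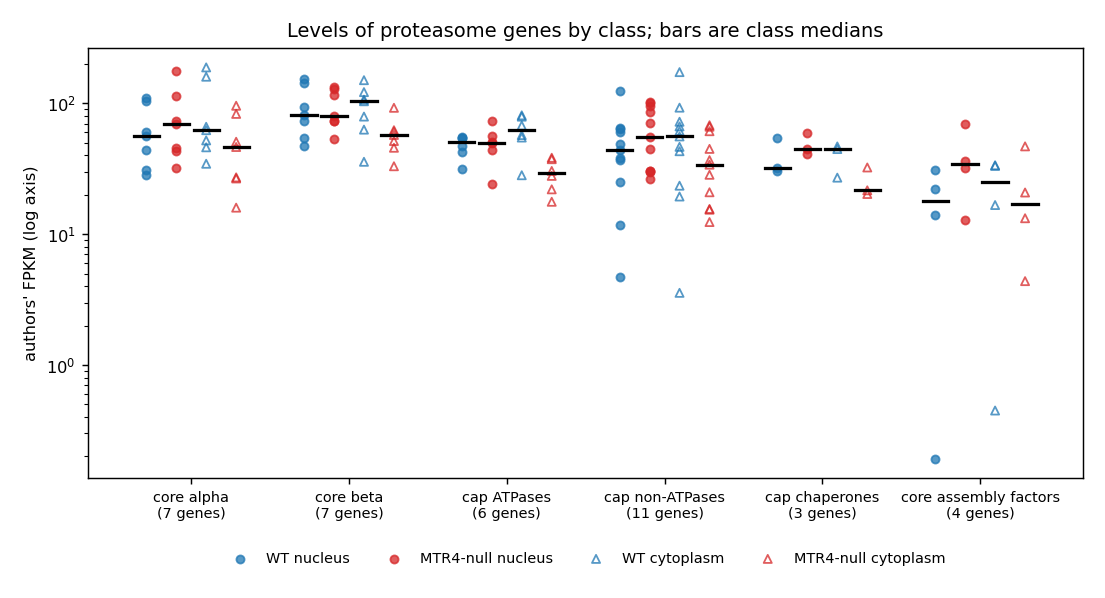
FPKM (log axis) of the genes of 6 classes in the 4 columns; each symbol is a gene and each black bar the median of its class. The cap non-ATPases and the core assembly factors each have genes far below their class in the WT columns (Psmd13 at 4.68 and 3.56 FPKM, Psmg2 at 0.191 and 0.448), which lie closer to their class in the MTR4-null columns.

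The beta genes had the highest class median in all 4 columns. In the WT nucleus the medians were 81.5 FPKM for the beta, 56.1 for the alpha, 50.8 for the ATPase and 44.3 for the non-ATPase genes. In the WT cytoplasm they were 103.9, 62.4, 62.5 and 55.9, with the alpha genes and the ATPases nearly level. In the MTR4-null nucleus they were 80.7, 69.5, 50.1 and 55.5, and in its cytoplasm 57.4, 46.4, 29.2 and 34.0, so that in both the non-ATPases stood above the ATPases.

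Among the assembly factors, Psmg1 and Psmg2 form 1 chaperone pair for the alpha ring and Psmg3 and Psmg4 another. Psmg1 was at 30.7, 69.4, 33.3 and 46.9 FPKM, and its partner Psmg2 at 0.191, 12.8, 0.448 and 4.37 FPKM. Psmg2 was thus near 0 in both WT columns, where its partner was well detected, and was not near 0 in the MTR4-null ones. Psmg3 was at 13.9, 36.2, 16.7 and 20.8 FPKM and Psmg4 at 22.1, 32.1, 33.7 and 13.2 FPKM. Psmg3 was highest in the MTR4-null nucleus, and Psmg4 lowest in the MTR4-null cytoplasm. None of the cap ATPase chaperones was near 0: Psmd5 was at 32.2, 59.1, 46.9 and 32.4 FPKM, Psmd10 at 30.2, 45.1, 27.1 and 21.6 FPKM, and Psmd9 between 20.3 and 54.4 FPKM.

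The activators stood at very different levels. Psme3, which forms a nuclear activator ring, was at 94.9, 116, 137 and 60.8 FPKM, and Psme4, a large nuclear activator linked to histone degradation in male germ cells, at 49.0, 36.4, 64.3 and 23.6 FPKM. Both were abundant in WT and lowest in the MTR4-null cytoplasm. Psme1 and Psme2, the interferon-inducible partners of 1 mixed ring, were at 0.439, 0.377, 1.25 and 3.71 FPKM and at 9.08, 9.98, 8.62 and 12.5 FPKM. Psme2 was well above its partner in each column, but its transcript is 99.4% identical over 82.5% of its length to that of Psme2b, so the reads of both genes may not be told apart. Psmf1, an inhibitor of the core, was at 47.8, 36.2, 63.9 and 24.3 FPKM. Psmc3ip carries a proteasome symbol but encodes a partner of the meiotic recombinases; it was at 15.2, 13.7, 19.2 and 12.9 FPKM, and leaving it out gave the same counts.

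The first comparison asks how these genes differed in the nucleus without MTR4. Of the 46 genes kept, 7 were at least 2-fold higher and 1 lower in the MTR4-null nucleus, and 38 lay in between. Among all 14270 genes kept, 23.9% were higher and 12.3% lower, beside 15.2% and 2.17% of the proteasome genes. Among the 4213 genes of 10 to 200 FPKM in every column, which hold 30 of the 31 constitutive core and cap genes, 10.99% were higher and 3.70% lower, beside 6.67% and 3.33% of those 30. The median difference of the 46 proteasome genes was 0.21, and that of all genes kept was also 0.21.

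The nuclear differences were led by 3 genes of low WT level. Psmg2 was at 0.191 (WT) against 12.8 FPKM (MTR4-null), a difference of 3.54 at percentile 98.6 of all genes. Psmd13 was at 4.68 (WT) against 26.5 FPKM (MTR4-null) (difference 2.27), and Psmd7 at 11.8 (WT) against 55.5 FPKM (MTR4-null) (difference 2.15). The latter stand at percentiles 94.3 and 93.3, so differences as large were not rare in the table. The other higher genes were Psmb10, with 1.37, Psmg3, with 1.32, Psmg1, with 1.15, and Psmd3, with 1.01. Psmc1 was the lower gene, at 55.3 (WT) against 24.4 FPKM (MTR4-null) and a difference of -1.15. Of the core, 0 of the 14 constitutive genes were at least 2-fold apart, and their differences ran from -0.47 to 0.73. Of the 4 core assembly factors, 3 were at least 2-fold higher and the fourth, Psmg4, had a difference of 0.52. The median of the 4 was 1.24. Psmg2, 1 of the 3, passed the filter only through the MTR4-null columns, so some rise of Psmg2 was fixed beforehand. With centring or rescaling the higher genes numbered 5, beside 19.2% (centring) and 20% (rescaling) of all genes. Psmg1 stood at 0.96 under both and Psmd3 at 0.82, which left 2 of the 4 assembly factors. The medians of the other classes were 0.19 for the alpha genes, -0.15 for the beta genes, 0.06 for the ATPases and 0.28 for the non-ATPases, but those of the alpha genes and the ATPases turned to -0.01 and -0.13 with centring.

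Psmd13 shares 7.64% of its exon bases with Sirt3, which lies on the other strand, and the sources used here do not give whether the counting used strand. Sirt3 was itself at 2.04, 18.6, 1.86 and 3.70 FPKM, low in both WT columns and highest in the MTR4-null nucleus. The part of such shared reads in the Psmd13 value was not tested. Psmg3 shares 26.8% of its exon bases with Gm26938 on its own strand, and the part of shared reads in its value was not tested. Psmc3ip shares 29.8% with Mlx on the other strand, which was at 15.2, 28.9, 19.1 and 17.5 FPKM. Psmb5 shares 12.1% with Mir686 on its own strand. The part of shared reads in the Psmc3ip and Psmb5 values was not tested either. No shared exon was found for Psmd7, Psmg2, Psmb10 and Psmc1. Psmc1 has a pseudogene copy 95.6% identical over 82.1% of its transcript and Psmb5 one 98.9% identical over 88.5%, so their reads may have been split.

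For the cytoplasm, 6 genes had values at least 2-fold above WT in MTR4-null, 17 at least 2-fold below and 23 in between, against 15% higher and 21.4% lower among all genes kept. The share of lower genes, 37.0%, was thus above that background, and the median of -0.73 was below the -0.26 of all genes. However, abundant genes as a whole were lower in this column: in the same window of 10 to 200 FPKM, 28.9% lay at least 2-fold below WT and the median was -0.67. Of the 30, 12 did so (40.0%), and their median was -0.82.

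The lower genes came from nearly every class. They were 4 of 6 ATPases, 4 of 11 non-ATPases, 2 of 7 alpha and 2 of 7 beta genes, the chaperone Psmd9, the activators Psme3 and Psme4, Psmf1 and Psmg4. Psmd4 had the lowest difference, at 174 (WT) against 61.3 FPKM (MTR4-null) (-1.49). Psme4 followed, at 64.3 (WT) against 23.6 FPKM (MTR4-null) (-1.41), and then Psmd1 (-1.41), Psmb7 (-1.38), Psmf1 (-1.36), Psmc1 (-1.35), Psmc2 (-1.34) and Psmd8 (-1.31). These 8 lay close together, and none stood apart. Psmb7 shares 34.9% of its exon bases with Nek6 on the other strand, which did not exceed 1.11 FPKM in any column. This side did not hold under rescaling: after centring each comparison by the median difference of genes with 1 FPKM or more throughout, or after setting the sum without small RNA genes equal, 0 proteasome genes were at least 2-fold lower and 8 were higher, beside 24.6% higher and 6.98% lower among all genes with centring.

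The higher genes stayed at least 2-fold higher under both rescalings. Both raise every genotype difference of the cytoplasm, so they could not have removed a higher gene. Psmb10 was at 0.293 (WT) against 8.82 FPKM (MTR4-null), a difference of 2.93. Psmg2 was at 0.448 (WT) against 4.37 FPKM (MTR4-null) (1.89), Psmd13 at 3.56 (WT) against 15.4 FPKM (MTR4-null) (1.85) and Psmd7 at 23.5 (WT) against 66.3 FPKM (MTR4-null) (1.46). These 4 are the genes that were also higher in the nucleus, and all 4 had a larger value in both MTR4-null columns than in both WT columns. For Psmb10 and Psmg2 some rise was fixed beforehand, as they passed the filter only through the MTR4-null columns. The share of all genes at least 2-fold higher in both compartments was not counted. Psmb11 and Psme1 were higher in the cytoplasm without being so in the nucleus, with differences of 1.62 and 1.06; neither exceeded 5 FPKM in any column. The genes added by rescaling were Psme2 and Psmg1. Whether cytoplasm and nucleus differ in these respects was not tested.

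The 31 constitutive core and cap genes were also set against their own median, which removes a shift of a whole column. In the nucleus that median was 0.19, and 3 of the 31 lay 1 or more away from it: Psmd13 and Psmd7 above and Psmc1 below. In the cytoplasm it was -0.80, and 3 lay 1 or more above: Psmd13, Psmd7 and Psmb5. Among the 30 in the window of 10 to 200 FPKM, 6.67% lay that far away in either compartment, against 13.6% of all genes in the window in the nucleus and 13.0% in the cytoplasm, measured from their own median. The interquartile range of the 30 differences was 0.81 in the nucleus, beside 0.88 for all genes in the window. In the cytoplasm it was 0.66, beside 0.86. Across the 31 genes, which are not independent replicates, the genotype difference in the nucleus and that in the cytoplasm had a Pearson's r of 0.81, and of 0.73 across the 4213 genes of the window. Without Psmd7 and Psmd13 it was 0.54 across 29 genes. The compartments share no column, but the nuclei and cytoplasms may come from the same oocytes.

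**Figure D3:**
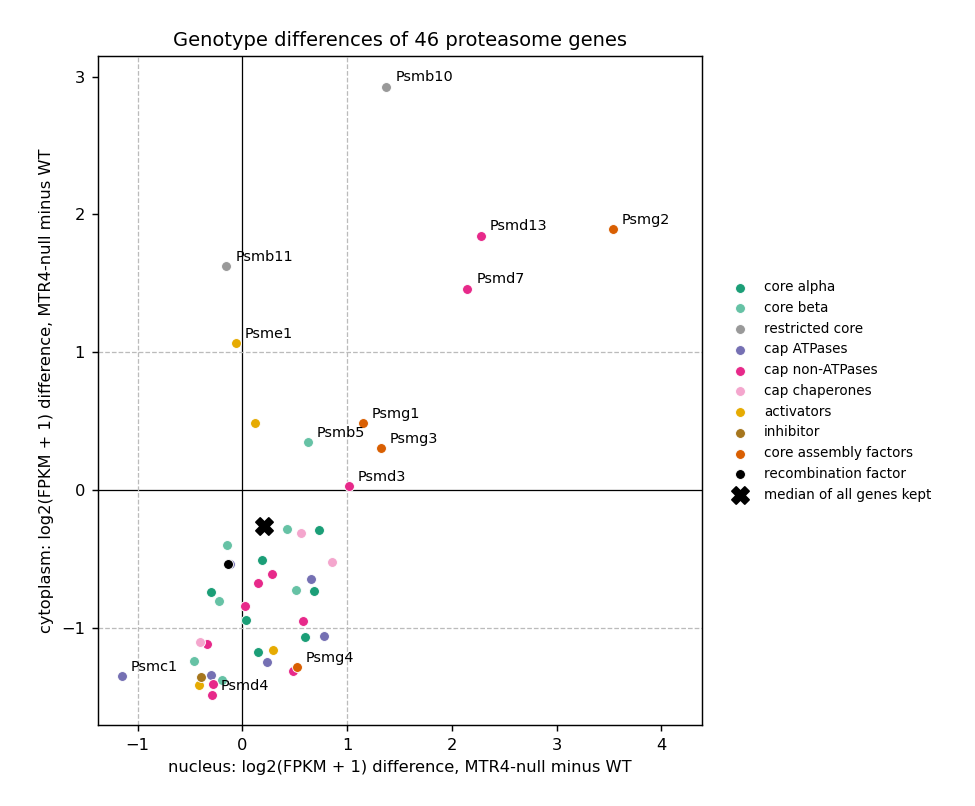
Difference between MTR4-null and WT on the scale log2(FPKM + 1), in the nucleus (horizontal axis) and the cytoplasm (vertical axis), for the 46 proteasome genes kept; colours are classes, dashed lines mark 2-fold and the cross is the median of all 14270 genes kept. Most genes lie below the cross, between -1.5 and 0 in the cytoplasm, while Psmd13, Psmd7, Psmg2 and Psmb10 lie beyond the dashed lines on both axes.

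Differences in this table also varied with base composition. Across 5 equal groups of genes ordered by the GC content of their transcripts, the median difference of all genes ran from -0.08 to 0.60 (nucleus) and from -0.51 to 0.00 (cytoplasm). Across the 46 proteasome genes GC content and difference had an r of 0.03 in the nucleus and 0.28 in the cytoplasm, as a description only. Psmd13, Psmd7 and Psmg2 have a GC content of 53.4%, 49.7% and 47.2%, inside the range of 37.0% to 58.3% of the 46 genes. Psmb10, Psmg3 and Psmd3, also higher in the MTR4-null nucleus, have 56.5%, 56.3% and 58.3% and lie in the group of highest GC content, where the median of all genes was 0.60. The part of base composition in single values was not tested.

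The third comparison sets nucleus against cytoplasm in WT. Of the 46 genes, 1 stood at least 2-fold above its cytoplasmic value, Psmb11 at 4.77 (nucleus) against 0.666 FPKM (cytoplasm), and 0 stood below, against 12.4% and 4.71% of all genes kept. In the window of 10 to 200 FPKM the shares were 0.665% and 1.23%, so few genes of this level differed by that much. The median was -0.26, beside -0.04 for all genes and -0.20 for the 4213 genes of 10 to 200 FPKM. At the cytoplasmic end stood Psmd7 at 11.8 (nucleus) against 23.5 FPKM (cytoplasm) (difference -0.94), Psmc5 at 42.6 (nucleus) against 81.1 FPKM (cytoplasm) (-0.91) and Psma7 at 104 (nucleus) against 189 FPKM (cytoplasm) (-0.86). Of the 31 constitutive genes, 0 lay 1 or more from their median, and their levels in both compartments had an r of 0.93, as 0.92 for the window of 4213. The share of cytoplasm carried into the nuclear samples was not measured. The medians by class were -0.49 for the alpha genes, -0.10 for the beta genes, -0.29 for the ATPases and -0.27 for the non-ATPases, that of the beta genes turning to 0.04 with centring.

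In MTR4-null oocytes, 9 genes stood at least 2-fold above their cytoplasmic value in the nucleus and 2 below, against 17% and 1.84% of all genes kept. The median was 0.67, beside 0.52 for all genes. Psmd6, a structural subunit of the lid, led with 95.2 (nucleus) against 28.5 FPKM (cytoplasm), a difference of 1.71. It was followed by Psmc6 (1.44), Psma3 (1.39), Psmg2 (1.36), Psmd14 (1.24), Psmg4 (1.22), Psmb7 (1.22), Psmd8 (1.19) and Psmd10 (1.03). With centring or rescaling 1 of the 9 was left, Psmd6, while the share of all genes went from 17% to 4.48% and 6.05%. On the cytoplasmic side were the low and inducible genes: Psme1 at 0.377 (nucleus) against 3.71 FPKM (cytoplasm) (-1.77) and Psmb10 at 2.61 (nucleus) against 8.82 FPKM (cytoplasm) (-1.44). Psmd7 and Psmc1 were the constitutive genes with a value below 0, at -0.25 and -0.31.

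The nucleus to cytoplasm ratio was higher in MTR4-null than in WT for all 31 constitutive genes, with differences between the 2 log ratios from 0.20 for Psmc1 to 1.84 for Psmc5 and a median of 0.98. Over the 46 genes it was higher in 42, and lower in Psmb10, Psmb11, Psme1 and Psme2, beside 10197 higher among the 14270 genes kept. The median over the 46 was 0.93, beside 0.57 for all genes kept and 0.80 for the 4213 of 10 to 200 FPKM, of which 3957 were above 0. At least 2-fold higher were 19 of the 46, beside 27% of all genes, and 3 were at least 2-fold lower, beside 10.7%. With centring the median over the 46 was 0.22. A whole-column shift of the MTR4-null cytoplasm enters each of these values.

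**Figure D4:**
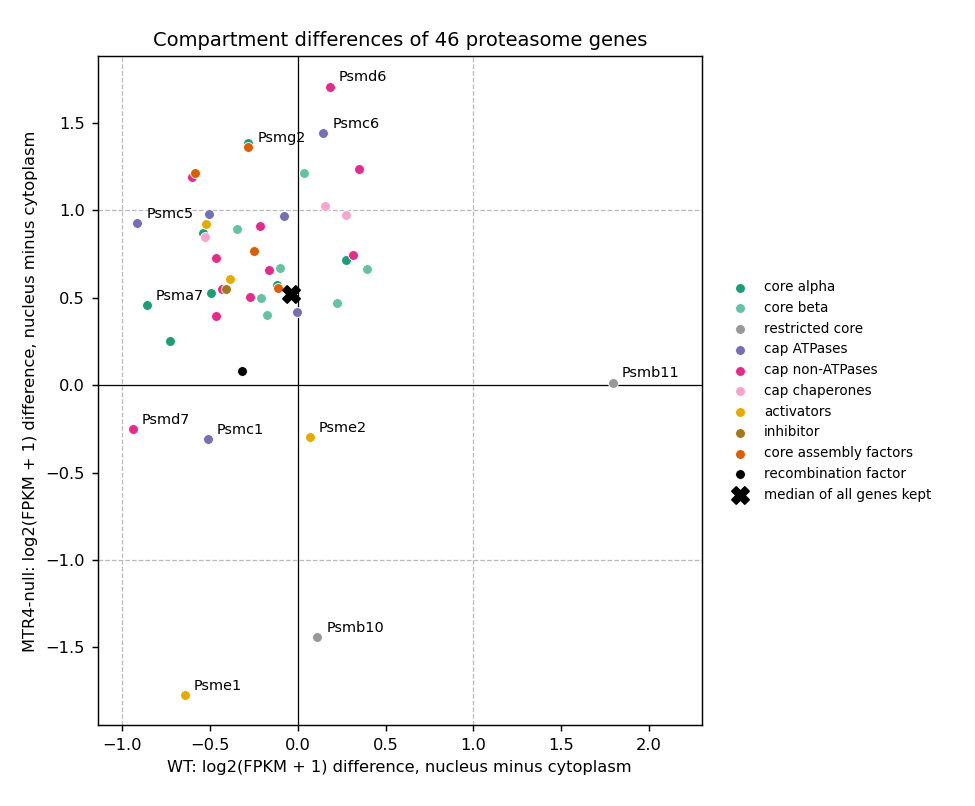
Difference between nucleus and cytoplasm on the scale log2(FPKM + 1), in WT (horizontal axis) and in MTR4-null (vertical axis), for the 46 proteasome genes kept; colours are classes, dashed lines mark 2-fold and the cross is the median of all genes kept. Most genes lie left of 0 in WT and above 0 in MTR4-null, and Psme1 and Psmb10 lie below -1 in MTR4-null.

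Promoters were read because proteasome genes are known to be raised together by the transcription factors NFE2L1 and NFE2L2, which bind antioxidant response elements. RefSeq promoters (GRCm38.p6, 250 bases before to 50 after the start site) matched 41 of the 49 genes. The core of that element, TGACNNNGC on either strand, was found in 6 of the 41 (14.6%), beside 14% of 27025 genes with a promoter in the same table. The NF-Y box, CCAAT on either strand, was found in 15 (36.6%), beside 41.1% of all. Both shares were near those of all promoters, the second slightly below. The 6 matches are shown with up to 10 bases on each side, 5′ to 3′ on the strand of the gene, the match in capitals:
Psmb5 (chr14:54618024-54618052, minus strand): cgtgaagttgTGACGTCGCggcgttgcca
Psmb6 (chr11:70525338-70525366, plus strand): ctaaagagagTGACGGAGCgctttacgac
Psmc6 (chr14:45329587-45329615, plus strand): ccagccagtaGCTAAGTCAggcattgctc
Psmd12 (chr11:107479278-107479299, plus strand): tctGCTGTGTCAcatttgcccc
Psmd9 (chr5:123228149-123228177, plus strand): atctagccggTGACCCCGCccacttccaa
Psme4 (chr11:30771758-30771786, plus strand): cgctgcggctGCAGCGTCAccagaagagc
The matches begin at positions -47, -9, -227, -247, -31 and -7 from the start site in this order, and those of Psmc6, Psmd12 and Psme4 lie on the other strand. In the cytoplasm the 6 genes had differences of 0.35, -0.39, -0.64, -1.12, -1.10 and -1.41, spread over much of the range of their classes. A match is a description of letters, not of binding. Coordinates of the files' own build, mm9, were not used.

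Other genes of the ubiquitin and proteasome pathway were read from a list of 33, of which 32 are in the table and all 32 were kept. In the nucleus 4 were at least 2-fold higher and 1 lower (median 0.25), beside 23.9% and 12.3% of all genes. In the cytoplasm 1 was higher and 8 lower (median -0.68), beside 15% and 21.4% of all genes. Ubqln4, a shuttle that carries ubiquitylated proteins to the cap, was at 4.43, 11.7, 8.19 and 4.74 FPKM, and Ube3c, a ubiquitin ligase bound to the proteasome, at 14.1, 33.2, 22.8 and 23.9 FPKM. Ngly1, the glycanase that activates NFE2L1, was at 26.5, 10.7, 23.6 and 8.54 FPKM and so lower in both MTR4-null columns. Its cytoplasmic difference, -1.36, was the third lowest of the list. The others of the 4 lowest were those of AI314180 (Ecpas), a proteasome adaptor, at 170.2, 96.9, 175 and 57.3 FPKM, of the shuttle Ubqln1, at 125, 82.4, 160.0 and 54.6 FPKM, and of Usp14, a deubiquitinase of the cap, at 11.4, 10.6, 15.0 and 5.59 FPKM. Nfe2l1 itself was at 45.3, 66.4, 69.5 and 48.6 FPKM, and Ubb, a polyubiquitin gene and the highest of the list, at 458, 470.0, 621 and 377 FPKM; both were named after their values were seen.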

How the data were processed

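Total RNA of nuclei and cytoplasms of day 21 mouse oocytes was measured in 4 groups. Per the labels' protocols, ribosomal RNA was depleted before library construction. The authors deposited 1 table of FPKM per gene, with 1 column per group; TopHat2 2.1.1, Cufflinks 2.2.1 and the build mm9 are named, without role or settings, per the submitters' processing notes. The last row has no gene name, holds the column sums (50% of all values) and was left out. The planned limma fit needs single libraries, which have no columns, so no test was run.

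Genes at 1 FPKM or more in at least 1 column were kept (14270 of 23235), and differences were taken on log2(FPKM + 1) with pandas 2.3.3. The counting of differences was tested on simulated data. Alternatives were a pseudocount of 0.1, no filter, a filter of 5 FPKM, centring, rescaling without small RNA genes, and leaving out Psmc3ip. Members given with all 4 values were those at least 2-fold apart at 5 FPKM or more (at most 8 per direction), the highest and lowest of each class in the WT cytoplasm, all restricted core genes, activators, assembly factors, Psmf1 and Psmc3ip; from the partner list, the 4 largest genotype differences at 5 FPKM or more, of which 1 gene is not reported here. Members and lists were chosen with earlier results of these data known. GC content, exon overlap and near-identical copies (BLAST 2.17.0, at least 95% identity over at least 50% of the transcript) came from GENCODE M21, matched by symbol: 46 of 46 genes and 91.1% of all genes kept had a GC value. Copies were found for 8 of the 49 genes (Psma4, Psma5, Psmb3, Psmb5, Psmc1, Psmd2, Psmd11 and Psme2), whose values are uncertain where reads were split.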

Additional observations from a re-analysis of the deposited data

How the results depend on the processing

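No paired analysis was possible because each group has a single deposited column; for the same reason no replicate could be left out. Scaling moved the most values. Centring subtracted 0.19 (genotype, nucleus), -0.52 (genotype, cytoplasm), -0.14 (compartment, WT) and 0.57 (compartment, MTR4-null) from every difference. Centring put the median of the 46 genes at 0.0172 for genotype in the nucleus, -0.21 for genotype in the cytoplasm, -0.12 for compartment in WT, 0.10 for compartment in MTR4-null and 0.22 for the difference of ratios; rescaling without small RNA genes put them at 0.0212, -0.14, -0.10, 0.0562 and 0.17. Under either, genes 2-fold or more below WT in the cytoplasm went from 17 to 0, and those higher in the MTR4-null nucleus than in its cytoplasm from 9 to 1, beside 17% of all genes going to 4.48% with centring and 6.05% with rescaling. In the nucleus, genes higher in MTR4-null went from 7 to 5, beside 23.9% of all genes going to 19.2% with centring and 20% with rescaling. Among all genes, the cytoplasmic split of 15% higher and 21.4% lower became 24.6% and 6.98% with centring. The class medians that changed sign were, for genotype in the nucleus, the alpha genes (-0.008 with centring, -0.0043 with rescaling) and the ATPases (-0.13 under both), for compartment in WT, the beta genes (0.0377 and 0.0627), and, for compartment in MTR4-null with rescaling, the alpha genes (-0.0423). A filter of 5 FPKM left 1 gene lower in the MTR4-null nucleus than in its cytoplasm and 0 higher in the WT nucleus; that filter also took the genes higher in the MTR4-null cytoplasm from 6 to 4. A pseudocount of 0.1 gave 1 gene, Psme1, lower in the WT nucleus, and took the genes higher in the MTR4-null nucleus than in its cytoplasm from 9 to 11 (with Psmc4 and Psmd9). Without a filter, or without Psmc3ip, no count of genes at least 2-fold apart differed. The cause of these changes was not tested. Psmd13, Psmd7, Psmg2 and Psmb10 were at least 2-fold higher in both compartments with a pseudocount of 0.1, with centring and with rescaling. Psmg2 and Psmb10 passed the filter only through the MTR4-null columns, so for them some rise was fixed beforehand. A smaller pseudocount enlarges every difference, and both scalings raise the genotype differences of the cytoplasm. Only the nuclear values under centring and rescaling could therefore have fallen. The depth behind low values such as those of Psmg2 and Psmb10 in WT is unknown, and the spread between libraries cannot be read from the table.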
